A study of Homo sapiens with 4 samples.

Results

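CD-numbered antigens are surface molecules, many of them of leukocytes, that carry a number of the cluster of differentiation nomenclature. They were taken here as every spot of the array whose printed name is CD followed by a number and at most a chain letter and digit, with 2 further names of this form left out, and spots of one accession were averaged. This gave 23 antigens, each printed as 2 spots, among 1856 gene probes, or 1.24% of the probes, and the other 1833 gene probes served for comparison. All 23 were matched to a current symbol by accession: the probe printed as CD164L1 belongs to CD248 and that printed as CD8B1 to CD8B. The RNA came from MDA-MB-231, a long-used cell line from a triple-negative adenocarcinoma of the breast, grown in serum-supplemented RPMI medium. The treated cultures received rhLRG1, the recombinant human form of the secreted glycoprotein LRG1, at 100 ng/mL, the untreated cultures received the medium without it, and both were harvested after 24 h. The 2 rhLRG1-treated and 2 untreated cultures, replicates 2 and 3 of each, were grown separately, and cultures of one number shared a 2-colour array. One dye marked rhLRG1-treated cells throughout and another marked untreated cells, so that dye and treatment cannot be told apart in any ratio below.

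Many CD molecules mark leukocyte lineages, such as the CD3 chains that couple the T cell receptor to its signalling, or CD22, an inhibitory lectin of B cells. Others, such as the hyaluronan receptor CD44, the complement inhibitor CD59 and the tetraspanins CD9, CD63, CD81 and CD151, are found on most adherent cells, carcinoma cells included. A list of antigens named by number therefore mixes genes that an epithelial tumour line is known to transcribe with genes that belong to blood cells. In RNA of a whole culture, fewer cells with a transcript and less transcript per cell cannot be told apart.

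The raw foreground of gene spots had medians of 397 and 319 in the rhLRG1 samples of replicates 2 and 3, against 508 and 425 in the untreated samples. The local background had medians of 70.2 and 70.4 in the rhLRG1 samples, against 42.9 and 48.9 in the untreated samples. Of the 46 antigen spots, 45 lay above their local background plus 2 SD in all 4 samples, as did 3750 of the 3786 gene spots, and each of the 23 antigens did so through at least 1 spot. Before loess normalization the median log2 ratio of rhLRG1 over untreated was -0.31 over all gene probes, so the ratios below are relative to the bulk of the probes. The ratios of the 2 arrays correlated at 0.633 across probes, which share arrays and are not independent replicates. Of the markers listed for a breast carcinoma line, 7 of 12 were on the array. They lay between the percentiles 9.75 (CAV1, caveolin) and 96.9 (EGFR, the epidermal growth factor receptor) of brightness. By the Z ratio described below, 0 of them was called in either direction, where 6.73% of all gene probes were called higher and 6.63% lower.

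The 23 antigens spread over almost the whole range of brightness. Their median stood at the percentile 43.2 of all gene probes, against 50.2 for the other probes, with 8 antigens among the dimmest 618 gene probes, 9 among the next 619 and 6 among the brightest 619. Brightness was taken over the 4 samples, and because it also depends on the probe, it does not order the transcripts of different genes. The plot of signal by sample shows the antigens in this order.

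**Figure D1:**
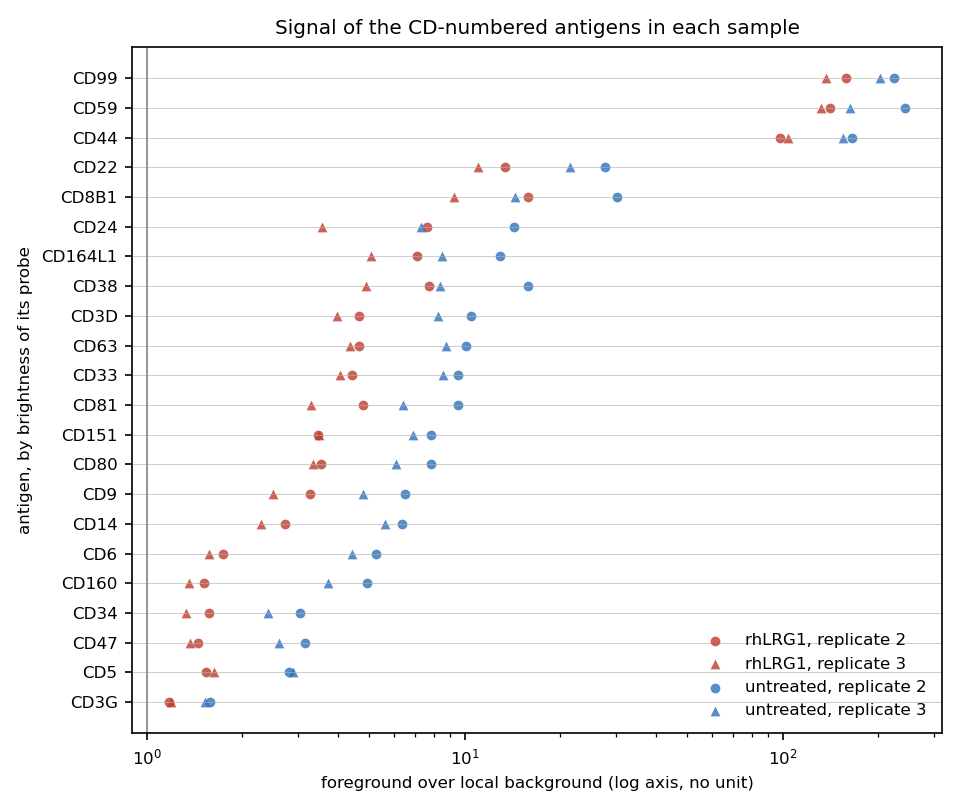
Foreground over local background (horizontal, log axis) of 22 of the antigens, ordered by brightness, in the rhLRG1-treated samples (red) and the untreated samples (blue) of replicate 2 (circles) and replicate 3 (triangles). CD99, CD59 and CD44 stand above 90 in all samples and CD3G lies between 1.18 and 1.58, next to the line at 1 where signal and background are equal.

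The brightest antigen was CD99, a glycoprotein of cell adhesion and migration, at 11417 and 9833 units in rhLRG1-treated cells (replicates 2 and 3) and 9798 and 10361 in untreated cells. CD59, which blocks the membrane attack complex of complement, read 9552 and 9126 in rhLRG1-treated cells, against 10314 and 8092 in untreated cells. CD44, known to be abundant in this line, read 6705 and 7271 in rhLRG1-treated cells, against 7088 and 7497 in untreated cells. In CD99 and CD59 the rhLRG1 values overlapped the untreated ones, and the log2 ratios had opposite signs on the 2 arrays. They were 0.16 and -0.20 for CD99, and -0.16 and 0.080 for CD59. With median centring in place of loess the signs were the same on both arrays, at 0.61 and 0.12 for CD99 and 0.30 and 0.38 for CD59. CD44 had ratios of -0.083 and -0.10, with an unadjusted p of 0.156 after loess in the limma fit over all gene probes. Its mean with median centring was 0.24.

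Several other antigens of wide distribution were dimmer than the median gene probe. CD47, the ligand of the phagocyte receptor SIRPA, stood at the percentile 5.93, with 98.6 and 92.6 units in rhLRG1-treated cells, against 133 and 130 units in untreated cells. The tetraspanin CD9 stood at the percentile 30.9, with 222 and 176 units in rhLRG1-treated cells, against 273 and 244 in untreated cells. The tetraspanins CD151, CD81 and CD63, chosen for mention once their values were known, lay between the percentiles 36.4 and 44.5. CD24, a mucin-like antigen that MDA-MB-231 cells are known to carry at a low level, stood at 51.5. Of the 15 antigens listed as broad, 9 were on the array, and their percentiles ran from 5.93 to 97.0.

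Lineage antigens were found in the upper and the lower part of the order. The B cell lectin CD22 stood at the percentile 75.6 and read 952 and 790 units in rhLRG1-treated cells, against 1207 and 1049 in untreated cells. The CD8B1 probe, for the beta chain of the CD8 co-receptor of cytotoxic T cells, read 1105 and 651 units in rhLRG1-treated cells, against 1296 and 711 in untreated cells. CD22 and CD8B1 were thus brighter than the median gene probe in all 4 samples. The 5 T cell antigens ran from the percentile 1.56 (CD3G) to 73.6 (CD8B1), and the 2 myeloid ones, the lipopolysaccharide co-receptor CD14 and the lectin CD33, stood at 27.5 and 43.2.

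The 5 dimmest antigens were CD160, CD34, CD47, CD5 and CD3G. CD34, a sialomucin of haematopoietic stem cells and endothelium, read 112 and 96.0 units in rhLRG1-treated cells, against 129 and 120.1 in untreated cells. CD5, a scavenger-receptor protein that dampens T cell receptor signalling, read 109 and 114 units in rhLRG1-treated cells, against 122 and 133 in untreated cells. Both were lower in raw units in the rhLRG1 samples with no overlap, while their ranks ran the other way: CD34 stood at the percentiles 11.7 and 9.27 in the rhLRG1 samples and 5.12 and 3.88 in the untreated samples, CD5 at 9.97 and 16.5 in the rhLRG1 samples and 3.83 and 4.80 in the untreated samples. In raw units, 13 of the 23 antigens had both rhLRG1 samples below both untreated samples, where 52.6% of all gene probes did, 9 overlapped, and CD3G alone had both rhLRG1 samples above both untreated samples, where 4.2% of all gene probes did.

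For most antigens the difference between replicates in raw foreground exceeded the log2 ratio between conditions, which was background-corrected and normalized by loess. The 2 are thus unlike measures, and the difference between replicates is also one between arrays, which each ratio cancels. Relative to the median gene probe of each sample, CD24 was 1.67-fold higher in replicate 2 than in replicate 3 among rhLRG1-treated samples and 1.38-fold among untreated samples, while its log2 ratio between conditions was 0.11 and -0.033 on the 2 arrays. Over the 23 antigens, the median absolute difference between replicates in raw foreground was 0.24 on the log2 scale. The median absolute log2 ratio between conditions, after loess, was 0.050. The difference between replicates was the larger in 18 of 23 antigens, or 78.3%, and in 79.5% of the other gene probes.

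To ask whether rhLRG1 changed these antigens, a Z ratio beyond 1.5 in size was used as the call, the threshold named in the study's methods. The Z ratio is the difference between the condition means of standardised log intensities, divided by the SD of all such differences, and it gives no p-value. It called 1 of 23 antigens higher, CD3G, where 6.73% of all gene probes were called higher. It called 2 of 23 lower, CD160 and CD6, where 6.63% of all gene probes were called lower. Over the array 125 probes were called higher and 123 lower, a split that plain subtraction of the background moved to 55 higher and 135 lower. The limma fit of the log2 ratios gave an unadjusted p under 0.05 to 1 antigen higher (CD248), where 11.6% of all probes passed, and to 2 lower (CD160 and CD6), where 11.7% passed. After Benjamini-Hochberg adjustment over all gene probes 0 of 23 antigens passed at 0.05, as did 0% of all probes, whose smallest adjusted p in limma was 0.124.

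**Figure D2:**
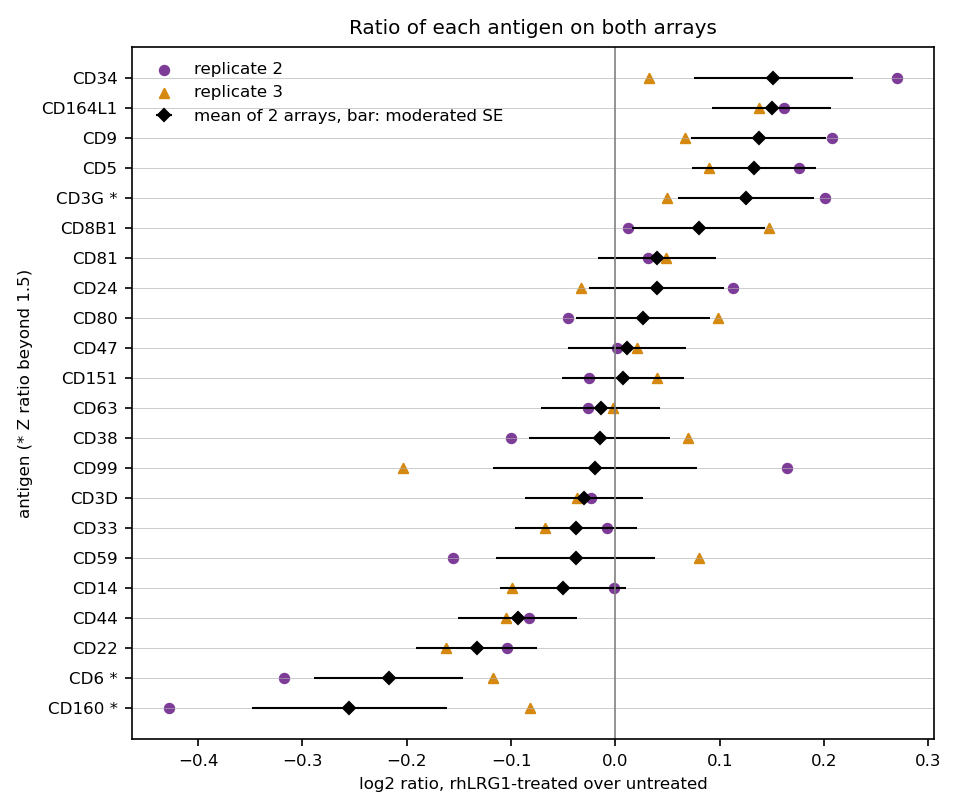
Log2 ratio of rhLRG1-treated over untreated cells for 22 of the antigens on the array of replicate 2 (circles) and of replicate 3 (triangles), with the mean (diamonds) and its moderated SE in the limma fit (bars). The means run from -0.26 for CD160 to 0.15 for CD34, and the antigens called by the Z ratio carry an asterisk.

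The log2 ratios of the antigens had a median of 0.0076, against -0.0063 over the other probes, with 12 antigens above 0 and 11 below. Their SD was 0.11, against 0.15 for the other gene probes. The sign was the same on both arrays in 17 of 23 antigens, or 73.9%, where 75.3% of all gene probes kept their sign. All 4 spot ratios shared a sign in 10 of 23 antigens, where 52.9% of the probes printed as 2 spots did so. Among them, those of CD248, CD34, CD3G, CD5 and CD9 were above 0, and they were below 0 for CD160, CD22, CD44 and CD6.

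CD160, a receptor of natural killer and cytotoxic T cells that binds HVEM, had the lowest ratio. It read 108 and 95.0 units in rhLRG1-treated cells, against 208 and 178 units in untreated cells, with no overlap. Relative to the local background these are 1.51 and 1.36 in rhLRG1-treated cells, against 4.92 and 3.71 in untreated cells. On that scale 85.4% of all gene probes had both rhLRG1 samples below both untreated samples. The log2 ratio was -0.43 on the array of replicate 2 and -0.082 on that of replicate 3, with a mean of -0.26 ± 0.094 (moderated SE, n = 2 arrays), a Z ratio of -1.80, and an unadjusted p of 0.038 and an adjusted p of 0.191 in limma. The mean was -0.56 with plain subtraction of the background, -0.53 with median centring and -0.84 without normalization. Without replicate 2 its Z ratio was -0.64, short of the threshold.

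CD6, a T cell receptor for the adhesion molecule ALCAM, came next. It read 124 and 111 units in rhLRG1-treated cells, against 225 and 222 in untreated cells, or 1.74 and 1.57 times the local background in rhLRG1-treated cells, against 5.26 and 4.44 times in untreated cells. Here too the groups did not overlap, and both log2 ratios were negative, at -0.32 and -0.12. The mean was -0.22 ± 0.071 (moderated SE, n = 2 arrays), with a Z ratio of -1.72, and an unadjusted p of 0.026 and an adjusted p of 0.174 in limma. The mean was -0.47 with plain subtraction, -0.49 with median centring and -0.80 without normalization. Without replicate 2 its Z ratio was -1.15.

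CD3G, the gamma chain of CD3, was called higher with a Z ratio of 2.38. It read 82.7 units in both rhLRG1-treated samples, against 67.7 and 74.5 units in the untreated samples, and its local background was 70.4 and 69.6 in the rhLRG1 samples, against 42.8 and 48.9 in the untreated samples. Foreground over local background was therefore lower in rhLRG1-treated cells, at 1.18 and 1.19, against 1.58 and 1.52 in untreated cells. The direction of CD3G thus differed between raw foreground and foreground over background, without overlap in either. Foreground over background was lower without overlap in 21 of 23 antigens and in 85.4% of all gene probes, so it does not set CD3G apart. Its log2 ratio after background correction and loess was 0.20 and 0.050, with a mean of 0.13 ± 0.065 (moderated SE, n = 2 arrays), an unadjusted p of 0.109 and an adjusted p of 0.314 in limma. The mean was 0.75 with plain subtraction, and with the authors' net intensities the arrays had opposite signs, at -0.15 and 0.60. Without replicate 2 the Z ratio was 1.37, short of the threshold.

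**Figure D3:**
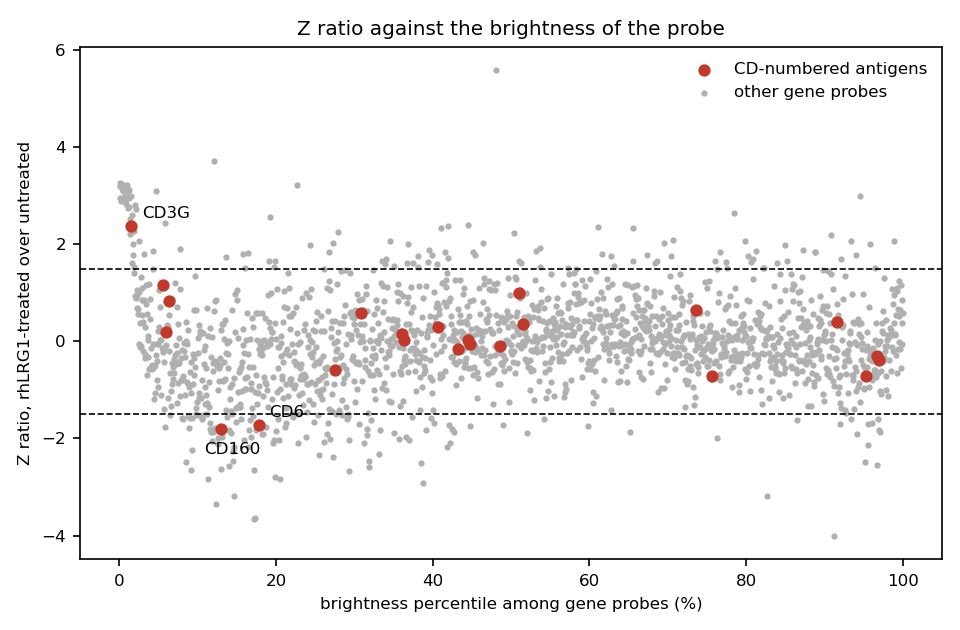
Z ratio of rhLRG1-treated over untreated cells (vertical) against the brightness percentile (horizontal) of the 23 antigens (red) and the other gene probes (grey), with dashed lines at 1.5 and -1.5. CD3G, at the percentile 1.56, lies in a group of very dim probes with high Z ratios, and the 3 called antigens all lie at or below the percentile 17.8.

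The called antigens were dim. All 3 were among the 618 dimmest gene probes, of which the Z ratio called 23.3%, against 9.21% of the next 619 and 7.59% of the brightest 619. Among the 100 dimmest gene probes, which include CD3G, 41 were called higher and 0 lower. With plain subtraction of the background, 34 of these 100 were called higher and 23 lower. Among the 200 probes above them, which include CD34, CD47, CD5 and CD160, the calls of the main processing ran mostly to the lower side. They were 2 higher and 15 lower in the first 100 and 4 higher and 24 lower in the next. The part of probe brightness and local background in the calls of CD3G, CD160 and CD6 was not tested.

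The T cell antigens included means above and below 0, and 0 of them passed the adjusted threshold. The other CD3 chain on the array, the delta chain CD3D, read 336 and 281 units in rhLRG1-treated cells, against 442 and 393 in untreated cells, with log2 ratios of -0.024 and -0.036. CD8B1 had log2 ratios of 0.012 and 0.15. CD5 and CD6, related receptors whose genes neighbour each other on chromosome 11, had means of opposite sign, 0.13 ± 0.060 for CD5 and -0.22 ± 0.071 for CD6 (moderated SE, n = 2 arrays), and a difference between the 2 genes was not tested. With median centring both were below 0, at -0.028 for CD5 and -0.49 for CD6. CD3D and CD3G are also neighbours on chromosome 11, which holds 9 of the 23 antigens. Of 13 listed T cell antigens, 5 were among the 23, while CD27 was printed under another name, TNFRSF7, and is not counted. The raw foreground of the 5 summed to 1757 and 1241 in rhLRG1-treated cells, against 2153 and 1533 in untreated cells. CD8B1 alone gave 1105 and 651 of these units in rhLRG1-treated cells, against 1296 and 711 in untreated cells. CD3G, a small part of the sum, ran the other way. The rhLRG1 sum was the lower of the 2 on each array, as was the median raw foreground of all gene spots.

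Further lists held leukocyte genes without a CD-number name, whether or not they also have a CD number. Among those of T and natural killer cells, 5 of 24 listed were on the array and 0 was called. Of all gene probes, 6.73% were called higher and 6.63% lower. The probes of these T and natural killer cell genes ran from the percentile 3.56 to 48.8. Both ends were probes of TRA, the alpha chain of the T cell receptor. Among B cell genes, 8 of 17 were on the array, from BCL6, a repressor of germinal centre B cells, at 6.84 to VPREB1, part of the surrogate light chain of pre-B cells, at 68.5, and 0 was called. Among myeloid genes, 11 of 19 were on the array, from the Fc receptor FCGR2A at 9.81 to CSF1R, the receptor of macrophage colony-stimulating factor, at 96.6. Of these, 1 was called higher, PILRA, an inhibitory receptor of myeloid cells (Z ratio 2.03), and 1 lower, CSF2RB, the common beta chain of the GM-CSF receptor family (Z ratio -2.91). In lists of this size, counts of 0 or 1 do not separate a list from the array. Among housekeeping genes, 5 of 10 were on the array, from the transferrin receptor TFRC at 21.9 to beta-actin, ACTB, at 71.1, and 0 was called.

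Of the antigens not called, CD248 (printed as CD164L1), or endosialin, an antigen of stromal fibroblasts and pericytes, was among the highest by mean ratio. It read 497 and 355 units in rhLRG1-treated cells, against 562 and 416 in untreated cells, and its log2 ratios were 0.16 and 0.14, with all 4 spots above 0. The mean was 0.15 ± 0.057 (moderated SE, n = 2 arrays), with a Z ratio of 1.01, an unadjusted p of 0.043 and an adjusted p of 0.204 in limma. The highest mean belonged to CD34, 0.15 ± 0.076, from 0.27 and 0.033 on the 2 arrays, and CD9 followed with 0.21 and 0.067. With median centring in place of loess the means of CD34, CD9 and CD5 were below 0, at -0.079, -0.031 and -0.028, while those of CD248 and CD3G stayed above 0, at 0.12 and 0.15. Without normalization, where the median probe stood at -0.31, all 5 were below 0, between -0.39 for CD34 and -0.16 for CD3G.

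On the lower side, CD22 had log2 ratios of -0.10 and -0.16, with all 4 spots below 0 and an unadjusted p of 0.067 in limma. CD14 completed the 5 lowest, with -0.0014 and -0.099. The remaining antigens, likewise chosen for mention once their values were known, kept to small ratios. The means of CD24, CD33, CD38, CD63, CD80, CD81 and CD151 lay between -0.038 for CD33 and 0.040 for CD81. CD38, an enzyme that degrades NAD and is carried by activated lymphocytes, had the widest gap between its 2 spots, 1.70 on the log2 scale. One spot read 866 and 523 units in rhLRG1-treated cells, against 1074 and 604 in untreated cells, and the other 167 and 147 in rhLRG1-treated cells, against 270 and 221 in untreated cells. The spots of no antigen differed more than 4-fold in brightness.

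The 3 calls depended on how the channels were processed. The Z ratio of CD3G ran from 0.57 to 3.44 and passed the threshold in 5 of 9 alternatives. That of CD160 ran from -2.29 to -0.64 and passed in 7 of 10 alternatives, and that of CD6 from -1.89 to -1.15 and passed in 6 of 10. The sign of each stayed the same in all of these.

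**Figure D4:**
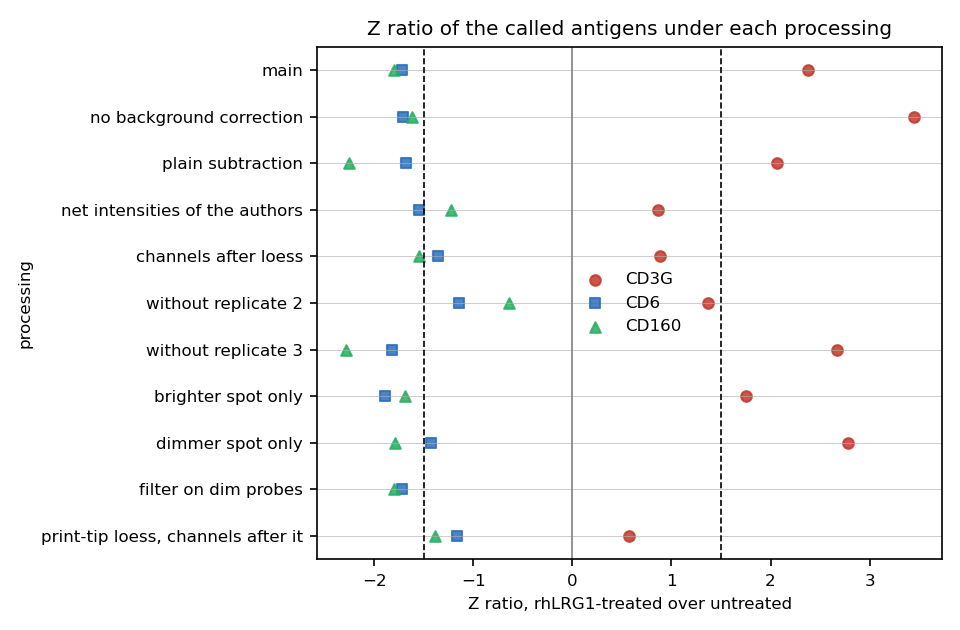
Z ratio of rhLRG1-treated over untreated cells (horizontal) of CD3G (circles), CD6 (squares) and CD160 (triangles) under each processing of the arrays (rows), with dashed lines at 1.5 and -1.5. With print-tip loess, or without replicate 2, none of the 3 lies beyond the lines, and CD3G has no point under the filter on dim probes, which it did not pass.

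Promoter sequence was read for CD160, the antigen with the lowest ratio, from RefSeq on GRCh38.p14. The 250 bases before its annotated start, chr1:145719249-145719498 on the plus strand, follow 5′ to 3′, with the hexamer TGTGGT, the core bound by RUNX factors, in capitals.
CD160: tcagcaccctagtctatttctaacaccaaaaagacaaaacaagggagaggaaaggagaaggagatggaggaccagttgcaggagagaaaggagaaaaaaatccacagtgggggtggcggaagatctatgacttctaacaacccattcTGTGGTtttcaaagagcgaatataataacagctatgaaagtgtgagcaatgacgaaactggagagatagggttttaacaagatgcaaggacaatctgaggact
TGTGGT and the TATA box hexamer TATAAA were searched on both strands of the 250 bases before each start. TGTGGT occurred in 11.0% and TATAAA in 10.7% of all 34961 promoters. Of the 15 antigens with a promoter entry, TGTGGT occurred in 3 (CD160, CD3D and CD59) and TATAAA in 0. An antigen was counted if any of its entries held the hexamer, whereas the shares above are of single promoters. These matches describe the letters of the windows and were not measured as binding sites. CD3G, CD5, CD6, CD8B, CD81, CD151 and CD248 are among those with no entry in the table.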

How the data were processed

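The authors deposited, for each spot, a raw intensity, a local background and a net intensity of both channels of each 2-colour array. The study's methods name genArise for reading the arrays, and R 4.2.2 is given in the submitters' processing notes. The deposited processed tables hold the same net intensities and served as a check. Raw intensities of the 3840 spots were corrected with normexp (offset 50) and normalized by loess within each array in limma 3.58.1 (R 4.3.3), the 54 control spots having weight 0. Spots of one accession were averaged, and log2 ratios of rhLRG1-treated over untreated cells were fitted with lmFit and eBayes over all 1856 gene probes, with Benjamini-Hochberg adjustment. The Z ratio used log10 of the background-corrected channels. Same-numbered samples share an array, and their deviations from the group means correlated at 0.945, so each ratio is paired. The number of arrays limits the precision.

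The members and the gene lists were chosen with earlier results of these data known. Named are CD3G, the CD3 and CD8 chains, members called by the Z ratio or with an unadjusted p under 0.05, the 5 highest and 5 lowest ratios, and the 5 brightest and 5 dimmest members. The values of 1 antigen, counted among the 23, are not reported here. Genes of the lists are named where called or at the ends of brightness. Symbols came from RefSeq by accession. The calculations were tested on simulated data. Alternatives were no background correction, plain subtraction (floor 1), median centring, no normalization, print-tip loess, the authors' net intensities, channels after loess, single spots, a filter on dim probes, each replicate left out, a robust variance model and a fit without the replicate block.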

Additional observations from a re-analysis of the deposited data

How the results depend on the processing

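The call of CD3G as higher, 1 antigen, was lost (0 antigens) with channels after loess, with print-tip loess and with the filter on dim probes, which CD3G did not pass. With no background correction 2 were called higher, CD5 (Z ratio 1.57) joining CD3G, where 4.58% of all gene probes were called higher. The 2 antigens called lower became 1 with the authors' net intensities (CD6), with channels after loess (CD160) and with the dimmer spot only (CD160), and 0 with print-tip loess. Leaving out a replicate gave 0 to 1 antigens higher and 0 to 2 lower, and it was replicate 2 without which all 3 calls were lost, while 6.41% of all gene probes were called higher and 5.71% lower. Without replicate 3 these shares were 5.77% and 6.79%, and over the other alternatives 2.96% to 6.68% of all gene probes were called higher and 5.66% to 7.27% lower. With the net intensities the antigen called higher was CD34 (Z ratio 1.88), CD3G reaching 0.86. No normalization and median centring cannot change a Z ratio, by construction, and are left out of the counts of its alternatives.

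The median log2 ratio of the antigens, 0.0076, was -0.037 with median centring, -0.035 with the dimmer spot, -0.35 with no normalization (where all gene probes had -0.31), and -0.0014 to 0.033 with a replicate left out. Their median brightness percentile, 43.2, was 44.1 with plain subtraction, 42.2 and 41.7 with the brighter and the dimmer spot, and 42.0 to 42.8 with a replicate left out.

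The 3 antigens with an unadjusted p under 0.05 in limma became 8 with no background correction, 8 with plain subtraction, 7 with the net intensities, 7 with the brighter spot, 11 with no normalization and 1 with print-tip loess. Over all gene probes the count of 433 became 680, 664, 745, 511, 752 and 442 under the same alternatives. The fit with no replicate block, which drops the pairing by array, gave 0 antigens and 0 probes. Of the Z ratios of the 23 antigens under the alternatives, 216 stayed on their side of the threshold, 11 fell short of it, 2 passed it and 0 changed direction among those called. With 2 arrays and the dyes never exchanged, ratios of dim antigens such as CD3G rest on a signal close to the local background.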
